A study of Mus musculus with 4 samples.

Results

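The mitochondrial ribosomal protein genes, Mrpl for the large and Mrps for the small subunit, were examined in naive CD4+ T cells with and without TACI. They were taken by symbol, as every gene with a probe set of exactly 1 gene symbol that begins with Mrpl or Mrps and a digit, which gave 71 of the 22180 genes on the array, 43 Mrpl and 28 Mrps. A RefSeq gene table (GRCm38.p6) holds 78 protein-coding genes with such symbols, and the 7 others (Mrpl30, Mrpl33, Mrpl41, Mrpl43, Mrpl44, Mrpl53 and Mrps6) had only probe sets shared with another symbol, which were not assigned to a gene. The cells were sorted as CD4+ CD62Lhigh CD44low CD25- from spleens and lymph nodes of C57BL/6 mice. One group lacked TACI (TACI-/-), a BAFF and APRIL receptor encoded by Tnfrsf13b, and the other was wild type (WT). Each genotype had 2 arrays (Affymetrix Mouse Gene 2.0 ST), called biological replicates of pooled tissue in the labels, and the number of mice in a pool, their age and the construction of the allele are not given in the sources used here.

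Mitochondria carry their own ribosome, which translates the few subunits of the respiratory chain and ATP synthase encoded in mitochondrial DNA. Its RNAs come from mitochondrial DNA, while all its proteins are encoded in the nucleus, made in the cytoplasm and imported. Some of them descend from bacterial ribosomal proteins and others have no bacterial counterpart. Naive T cells are small resting cells, and their mitochondrial mass and protein synthesis are known to grow after stimulation through the antigen receptor.

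Values were the authors' log2 expression values, with medians over all probe sets of 4.11 to 4.13 on the 4 arrays. The targeted gene Tnfrsf13b was at 2.73 and 3.09 on the TACI-/- arrays and at 2.95 and 3.02 on the WT arrays, under the low-value filter on each, so the array does not check the genotype labels. Array values carry no read depth, and 2 arrays per genotype limit the precision. The level of one probe set was not set against that of another, since probes differ in brightness. Among the naive CD4 T cell markers measured, Cd3d, Cd3e, Cd3g, Cd4, Ccr7, Il7r and Lef1 lay above the low-value filter on all 4 arrays. This filter, 3.74 to 3.77 log2 units depending on the array, was the 40th percentile over probe sets naming 1 gene, and at least 2 arrays had to reach it. It left 69 of the 71 genes and 13782 genes in all for testing. The exceptions were Mrpl42, at 3.64, 3.60, 3.71 and 3.86 on TACI-/- replicates 1 and 2 and WT replicates 1 and 2, and Mrps36, below the filter on every array. Despite its symbol, Mrps36 is known as a subunit of the oxoglutarate dehydrogenase complex and not of the ribosome.

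The sequences before the start sites are shown for the gene with the lowest p, Mrps10, and for the 3 Mrps18 genes, which descend from 1 bacterial protein and had log2 fold changes on both sides of 0 here. Each is the 250 bases upstream of the annotated start on the gene's strand, from a RefSeq promoter table (GRCm38.p6), with capitals for 4 motifs of known regulators of mitochondrial genes, searched on both strands. These were the NRF1 core TGCGCA, the ETS core CCGGAAG bound by GABP, the YY1 core AAGATGG and the E-box CACGTG bound by MYC; an ETS and a YY1 core can share the letters AAG. The stretches lie at chr17:47368947-47369196 (plus strand) for Mrps10, chr17:46110754-46111003 (plus strand) for Mrps18a, chr17:35916441-35916690 (minus strand) for Mrps18b and chr5:100798509-100798758 (plus strand) for Mrps18c.
Mrps10: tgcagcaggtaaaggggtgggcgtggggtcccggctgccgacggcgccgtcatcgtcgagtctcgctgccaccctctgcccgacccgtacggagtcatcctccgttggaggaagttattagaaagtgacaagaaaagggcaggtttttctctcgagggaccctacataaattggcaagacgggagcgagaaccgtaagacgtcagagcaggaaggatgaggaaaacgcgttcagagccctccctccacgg
Mrps18a: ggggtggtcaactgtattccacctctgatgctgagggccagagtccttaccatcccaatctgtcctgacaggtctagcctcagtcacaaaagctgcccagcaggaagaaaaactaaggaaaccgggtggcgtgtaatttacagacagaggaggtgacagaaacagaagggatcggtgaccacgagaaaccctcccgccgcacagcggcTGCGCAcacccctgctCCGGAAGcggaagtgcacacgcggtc
Mrps18b: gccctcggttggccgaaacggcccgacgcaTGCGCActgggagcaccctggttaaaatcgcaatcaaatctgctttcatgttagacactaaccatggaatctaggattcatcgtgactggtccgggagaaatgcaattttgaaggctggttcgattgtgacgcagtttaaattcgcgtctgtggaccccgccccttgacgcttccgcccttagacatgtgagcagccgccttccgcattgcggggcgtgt
Mrps18c: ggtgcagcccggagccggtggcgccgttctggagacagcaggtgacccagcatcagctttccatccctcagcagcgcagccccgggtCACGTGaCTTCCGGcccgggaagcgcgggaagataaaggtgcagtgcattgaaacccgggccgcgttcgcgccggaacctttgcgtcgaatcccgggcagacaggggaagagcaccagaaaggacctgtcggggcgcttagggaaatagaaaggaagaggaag
Mrps10 held none of the 4 motifs in this stretch or in the 50 bases after the start. In Mrps18a an NRF1 core began 42 bases and an ETS core 26 bases before the start, and a YY1 core lay at base 12 after it. Mrps18b had an NRF1 core 220 bases before the start and, after it, another at base 32 and an ETS core at base 44. Mrps18c had an E-box and an ETS core at 163 and 156 bases before the start and none after it. A match describes letters and is not evidence of binding.

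Over all members the NRF1, ETS and YY1 cores were more frequent than in promoters at large and the E-box was not, a description with no test. The table held 68 windows of 300 bases for 62 of the 71 genes, and 32851 windows in all. The NRF1 core was in 20 of the 68 windows (29.4%), against 7.76% of all windows and 9.74% of the 21263 windows of protein-coding genes. ETS cores were in 23 (33.8%, against 8.86% and 11.6%), YY1 cores in 13 (19.1%, against 6.34% and 6.24%) and E-boxes in 7 (10.3%, against 7.15% and 7.84%). Some windows repeat a gene (Mrpl2 has 3 overlapping ones, each with an E-box), and with each gene counted once the shares were 30.6%, 37.1%, 21.0% and 8.06% of 62 members, against 11%, 12.9%, 7.18% and 8.91% of protein-coding genes, for the NRF1, ETS, YY1 and E-box letters. Either an NRF1 or an ETS core stood in 19 of 42 large subunit windows (45.2%) and 16 of 26 small subunit windows (61.5%). The share of protein-coding windows was 19.5%. With each gene counted once, the NRF1 core was in 29.7% of 37 large and 32.0% of 25 small subunit genes. For the ETS core these shares were 32.4% and 44.0%. The sequence TATAAA was found within 50 bases upstream of the start in none of the 68 windows and in 3.17% of the protein-coding ones. The median GC content was 58.5%, against 56.3% for protein-coding genes. The 19 members with an NRF1 core had a median log2 fold change of -0.02 and the 43 without one -0.06, and for the ETS core the medians were -0.07 (23 genes) and -0.02 (39 genes).

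**Figure D1:**
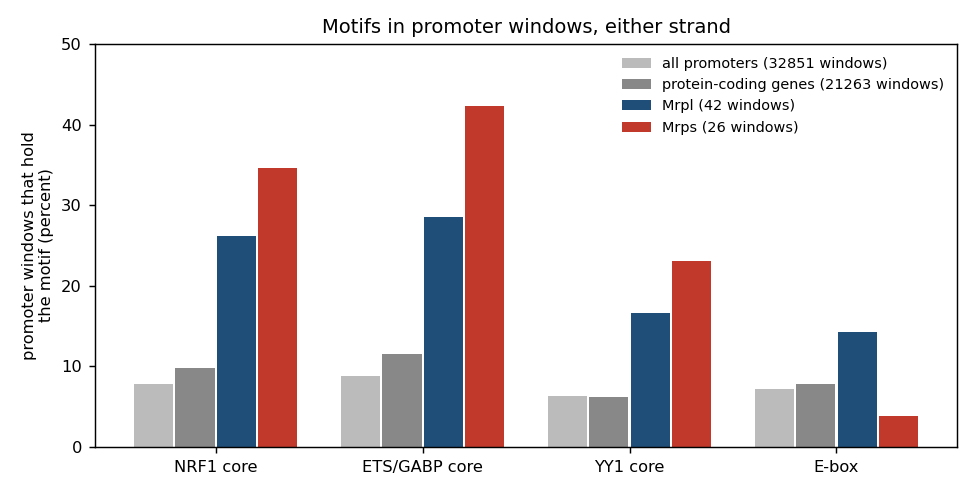
Percent of promoter windows of 300 bases that hold each of 4 motifs on either strand, for all windows of the table, those of protein-coding genes, and those of Mrpl and Mrps genes. The Mrpl and Mrps bars stand at 26.2% and 34.6% for the NRF1 core and at 28.6% and 42.3% for the ETS core, above both grey bars; the Mrps bar for the E-box, at 3.85% (1 window), is below them.

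TACI-/- replicate 2 tended to lie below the other arrays for these genes, by more than the genotypes differed. It lay below replicate 1 of its genotype for 53 of the 71 genes (74.6%), beside 57.6% of all tested genes, with a median difference of -0.21 log2 units, beside -0.05. WT replicate 2 lay below WT replicate 1 for 35 of the 71, with a median difference of 0.01. The gap between the TACI-/- arrays was wider than the difference between genotype means for 49 genes (69.0%, beside 57.0% of all tested genes). The gap between the WT arrays was wider than that difference for 42 of the 71, beside 7644 of all 13782 tested genes. For 31 genes TACI-/- replicate 2 was the lowest of the 4 arrays (43.7%, beside 29.0%). TACI-/- replicate 1 was the highest for 28 of the 71, beside 4453 of all 13782 tested genes. The widest gaps were in Mrpl32, at 4.89 and 3.96 on the TACI-/- arrays against 4.02 and 4.29 in WT cells, and in Mrps18a. Mrps9, the counterpart of S9, was nearly level, at 6.22, 6.23, 6.22 and 6.24.

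The median over the 71 genes changed sign with the TACI-/- array used, 0.06 with replicate 1 alone and -0.06 with replicate 2 alone, each against both WT arrays. Some other lists lay low on that array too: the median difference of TACI-/- replicate 2 from replicate 1 was -0.18 for 64 cytoplasmic ribosomal protein genes, -0.17 for 80 oxidative phosphorylation genes and -0.23 for 20 genes of mitochondrial import and protein quality control. Others were near the -0.05 of all tested genes: -0.03 for translation factors, -0.04 for aminoacyl-tRNA synthetases, -0.03 for transcription regulators, -0.07 for mitochondrial transcription and RNA processing and -0.08 for assembly and rRNA modification. What sets that array apart was not tested.

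**Figure D2:**
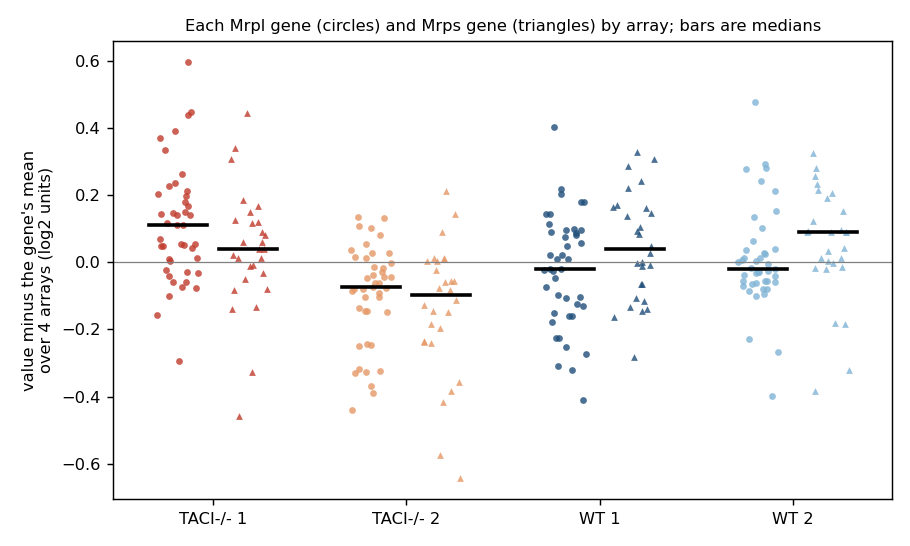
Each gene's value on an array minus its mean over the 4 arrays, in log2 units, for 43 Mrpl genes (circles) and 28 Mrps genes (triangles), with bars at the medians. The medians on TACI-/- replicate 2 are -0.07 (Mrpl) and -0.10 (Mrps), below 0 for both subunits, and those on TACI-/- replicate 1 are 0.11 and 0.04.

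Whether loss of TACI goes with another level of these genes is the comparison that the design allows. No mitochondrial ribosomal protein gene passed the test: of 69 tested, 0 were higher and 0 lower in TACI-/- cells at an adjusted p under 0.05 (limma, Benjamini-Hochberg over all tested genes), beside 19 of all 13782 genes (0.138%). Their lowest limma adjusted p was 0.54. At an unadjusted limma p under 0.05, 1 of the 69 (1.45%) was counted, Mrps10, beside 8.78% of all tested genes. Single genes shifted with the TACI-/- array left out, among them Mrps10 and Mrpl14, the members of lowest p. Without TACI-/- replicate 1 their log2 fold changes were -0.86 and 0.18, and without TACI-/- replicate 2 they were -0.27 and 0.55. The median log2 fold change, TACI-/- minus WT, was -0.02 over the 71 genes and 0.01 over all tested genes, and 38 of the 69 (55.1%) were negative, beside 48.2%. For 23 of the 69 the values of the genotypes did not overlap, 9 higher and 14 lower in TACI-/- cells (33.3%), beside 38.7% of all tested genes, a share that gives the members no standing above the background.

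How large a difference these arrays leave possible is given by the 95% intervals of the log2 fold changes from limma. They had a median half-width of 0.38 on the log2 scale. For 67 of the 69 genes the whole interval lay within a 2-fold difference in either direction, and for 44 within 1.5-fold (63.8%, beside 66.7% of all tested genes). The exceptions to the 2-fold bound were Mrps10, with an interval from -1.06 to -0.07, and Mrps18a, from -1.08 to 0.17. A p that misses the threshold does not show that the genotypes are alike, and differences inside these intervals remain possible.

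**Figure D3:**
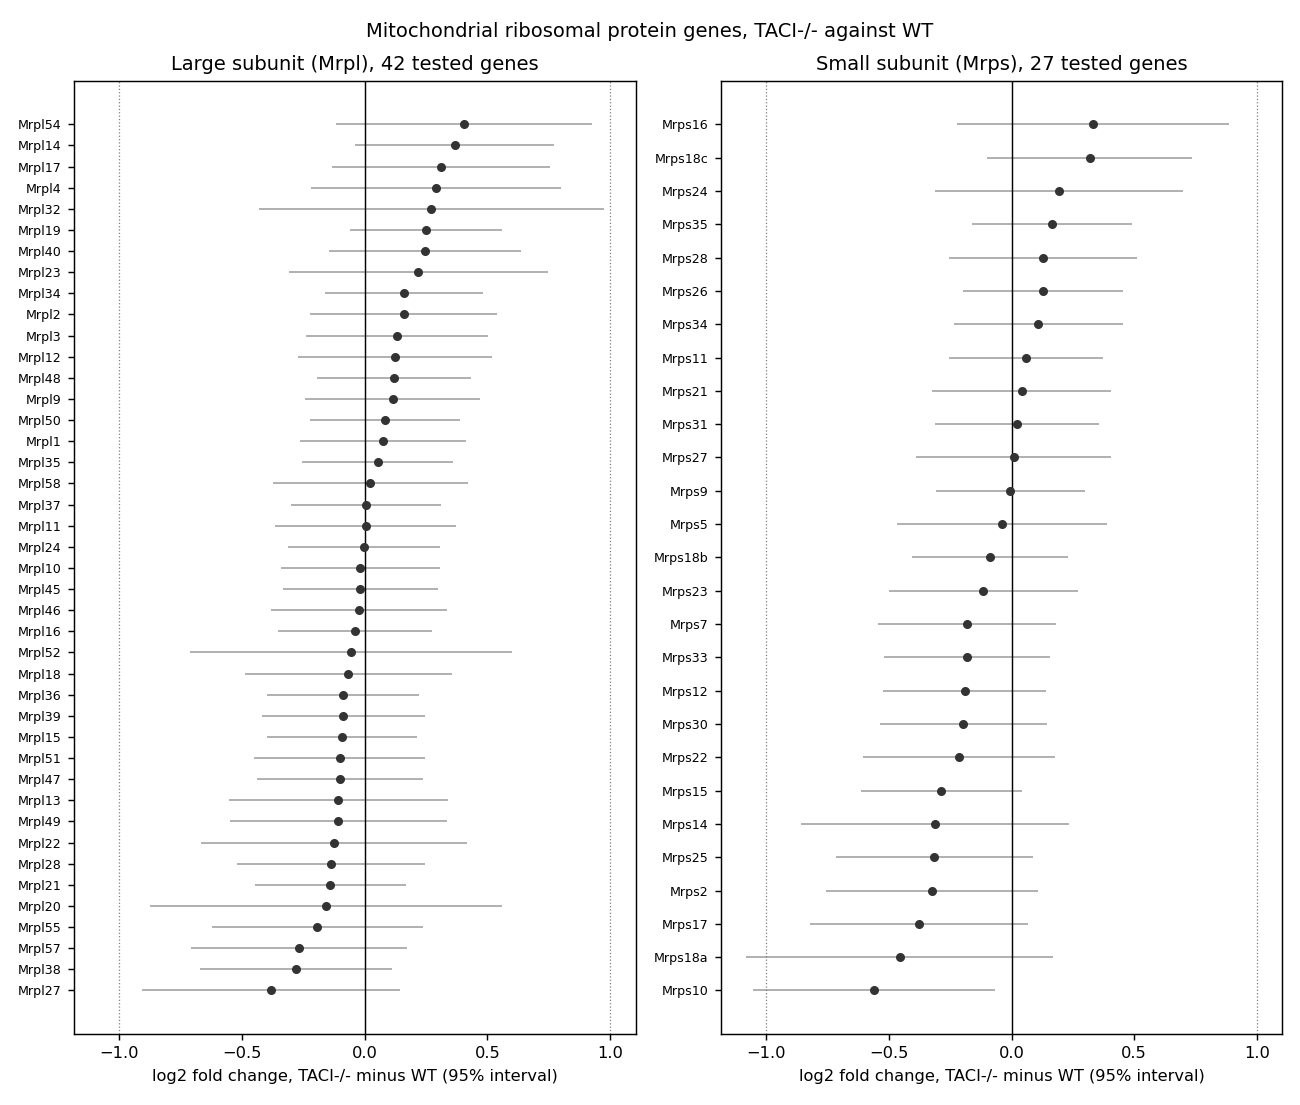
Log2 fold change (TACI-/- minus WT) with its 95% interval from limma for the 42 tested Mrpl genes and the 27 tested Mrps genes, each panel ordered by fold change, with dotted lines at a 2-fold difference. All points lie between -0.56 (Mrps10) and 0.40 (Mrpl54), and only the interval of Mrps10 leaves out 0.

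Among small subunit genes, the lowest p belonged to Mrps10, whose bacterial counterpart S10 sits in the head of the small subunit. Its values were 4.92 and 4.33 log2 units on TACI-/- replicates 1 and 2 and 5.21 and 5.16 on WT replicates 1 and 2. The groups did not overlap, and the gap between the TACI-/- arrays was about as wide as that between the genotypes. The log2 fold change was -0.56 ± 0.21 (SE), with an unadjusted limma p of 0.0311 and an adjusted p of 0.54. Without TACI-/- replicate 2 it was -0.27, and without replicate 1 it was -0.86.

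Mrps15, the counterpart of a bacterial protein that binds ribosomal RNA early in assembly, was at 6.91 and 6.73 in TACI-/- and 7.13 and 7.08 in WT cells. Mrps17, the counterpart of another such protein, was at 5.99 and 5.53 in TACI-/- and 6.23 and 6.04 in WT cells. Both were lower on each TACI-/- array than on either WT array. Their log2 fold changes were -0.29 ± 0.14 and -0.38 ± 0.19 (SE), with limma adjusted p of 0.62 and 0.63. Mrps25, which has no bacterial counterpart, was at 5.66 and 5.26 against 5.78 and 5.77, and Mrps2, the counterpart of S2, at 4.87 and 4.43 against 4.90 and 5.04. In these 2 genes TACI-/- replicate 1 lay close below the WT arrays and replicate 2 stood further down. Mrps12, the counterpart of S12 of the decoding centre, had a log2 fold change of -0.19 ± 0.14 (SE) with no overlap of the groups (4.80 and 4.87 against 4.93 and 5.12). Mrps16 was on the other side, at 5.09 and 4.53 in TACI-/- and 4.69 and 4.26 in WT cells, and these groups overlapped. Mrps14, at 3.34 and 3.94 against 4.13 and 3.78, was below the filter on TACI-/- replicate 1.

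The 3 Mrps18 genes offer a comparison within 1 protein family, since each encodes a relative of bacterial S18 that occupies its own place in the ribosome. Mrps18a, whose product is known from structures to lie in the large subunit, was at 5.78 and 4.95 in TACI-/- and 5.84 and 5.81 in WT cells. Mrps18b was at 6.81 and 6.74 against 6.93 and 6.80, and Mrps18c at 4.77 and 4.47 against 4.46 and 4.14. The Mrps18a difference rested on TACI-/- replicate 2 (its log2 fold change was -0.04 without that array), the Mrps18b groups overlapped, and the Mrps18c groups lay side by side without overlap. Log2 fold changes were -0.46 ± 0.26, -0.09 ± 0.13 and 0.32 ± 0.17 (SE), with limma adjusted p of 0.69, 0.91 and 0.67. The difference between the paralogues was not tested. A further probe set of Mrps18c had a log2 fold change of -0.22, opposite in sign to the brighter one used.

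**Figure D4:**
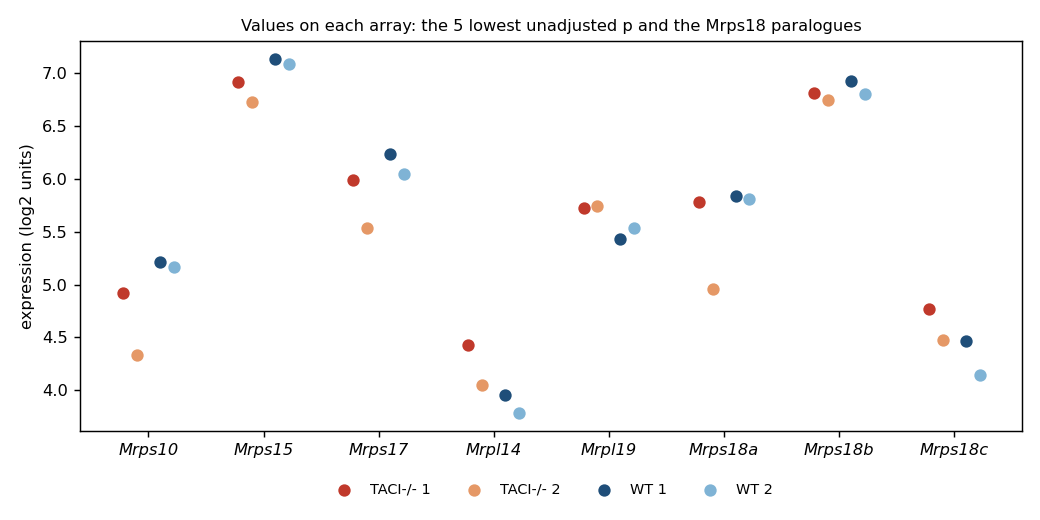
Log2 expression on each array for the 5 genes with the lowest unadjusted p (Mrps10, Mrpl14, Mrps15, Mrps17 and Mrpl19) and for the Mrps18 paralogues; each point is 1 array, red and orange for TACI-/- and blue for WT. Mrps10 and Mrps18a have TACI-/- replicate 2 at 4.33 and 4.95, apart from replicate 1 at 4.92 and 5.78. Heights of different genes are not comparable.

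Large subunit genes gave no unadjusted limma p under 0.05, beside 8.78% of all tested genes. Mrpl14, the counterpart of bacterial L14 at the interface between the subunits, was at 4.42 and 4.05 in TACI-/- and 3.96 and 3.79 in WT cells. Mrpl19, the counterpart of L19 at that interface, was at 5.73 and 5.74 against 5.43 and 5.54. In both, each TACI-/- array was higher than either WT array. Their log2 fold changes were 0.37 ± 0.17 and 0.25 ± 0.13 (SE), with limma adjusted p of 0.61 and 0.66. Mrpl14 was among the 6 dimmest members, and its value on WT replicate 2 lay little above the filter of 3.74 on that array. Mrpl54, which has no bacterial counterpart, had the highest log2 fold change, 0.40 ± 0.22, and its groups overlapped (6.37 and 5.88 against 5.51 and 5.93). Mrpl17, the counterpart of L17, was at 6.30 and 5.84 against 5.69 and 5.83. Only TACI-/- replicate 1 stood apart in it.

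Proteins of the central protuberance, the crown of the large subunit that contacts transfer RNA, include Mrpl38 and Mrpl40, both without a bacterial counterpart. Mrpl38 was at 6.24 and 5.86 in TACI-/- and 6.33 and 6.32 in WT cells. Mrpl40 was at 6.16 and 6.18 against 5.74 and 6.11. Their log2 fold changes were -0.28 ± 0.16 and 0.25 ± 0.16 (SE; limma adjusted p 0.70 and 0.74), and each rested much on 1 array: that of Mrpl38 was -0.09 without TACI-/- replicate 2, and that of Mrpl40 was 0.06 without WT replicate 1. Mrpl27, the counterpart of a bacterial protein whose tail reaches the peptidyl transferase centre, was at 3.97 and 3.48 against 4.32 and 3.89, below the filter on TACI-/- replicate 2. Mrpl57, which has no bacterial counterpart, was at 4.65 and 4.29 against 4.58 and 4.90, with overlapping groups.

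The stalk that recruits translation factors showed small differences. Mrpl10, its base, was at 6.45 and 6.49 in TACI-/- and 6.57 and 6.40 in WT cells, and Mrpl12, which is also known to bind the mitochondrial RNA polymerase, at 4.92 and 4.59 against 4.53 and 4.73. Both pairs of groups overlapped. Mrpl24, of the exit tunnel, was nearly level on the 4 arrays, at 8.11, 8.01, 8.08 and 8.05, with a log2 fold change of -0.0041 ± 0.13 (SE) and a 95% interval from -0.31 to 0.31. Mrpl45, which anchors the ribosome to the inner membrane, had -0.02 ± 0.13. Mrpl58, a peptidyl-tRNA hydrolase that rescues stalled ribosomes, had 0.02 ± 0.17, and Mrpl39 -0.09 ± 0.14. Mrpl52 varied most within both genotypes among these, at 7.63 and 6.91 in TACI-/- and 7.07 and 7.58 in WT cells.

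The subunits were compared by the mean of the Mrpl genes minus the mean of the Mrps genes on each array, a gap that is read only across arrays. It was 0.0013 and -0.03 log2 units on TACI-/- replicates 1 and 2 and -0.14 and -0.12 on WT replicates 1 and 2. The gap was therefore higher on both TACI-/- arrays, by 0.12 log2 units, and the groups did not overlap; no p is given for a score over the members. In terms of medians, the log2 fold change was -0.02 over the 43 Mrpl genes and -0.10 over the 28 Mrps genes, a difference of 0.08. Groups did not overlap for 7 tested Mrpl genes on the higher and 4 on the lower side, and for 2 tested Mrps genes on the higher and 10 on the lower side. These shares, 26.2% of 42 and 44.4% of 27, stand on either side of the 38.7% of all tested genes.

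Several values bear on how far this gap belongs to the subunits. With Mrps18a and Mrps30 moved to the large subunit, where structures place their products, and Mrps36 left out, the gap was -0.07 and -0.11 on the TACI-/- arrays and -0.18 and -0.13 on the WT arrays, a difference of 0.07, and the medians differed by 0.02. Mrps30 was at 5.81 and 5.89 against 5.94 and 6.16, and Mrps36 at 2.80 and 2.97 against 3.27 and 3.45, levels too low to give a fold. Gaps of the median level in place of the mean were -0.06 and 0.27 on the TACI-/- arrays and -0.08 and -0.13 on the WT arrays, so that the TACI-/- arrays differed from each other by more than the genotypes. Cytoplasmic ribosomal protein genes had a gap that was likewise higher on both TACI-/- arrays (40 Rpl minus 24 Rps genes), 0.20 and 0.34 on the TACI-/- arrays against 0.13 and 0.15 on the WT arrays. The gap is thus not shown to be particular to the mitochondrial ribosome.

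**Figure D5:**
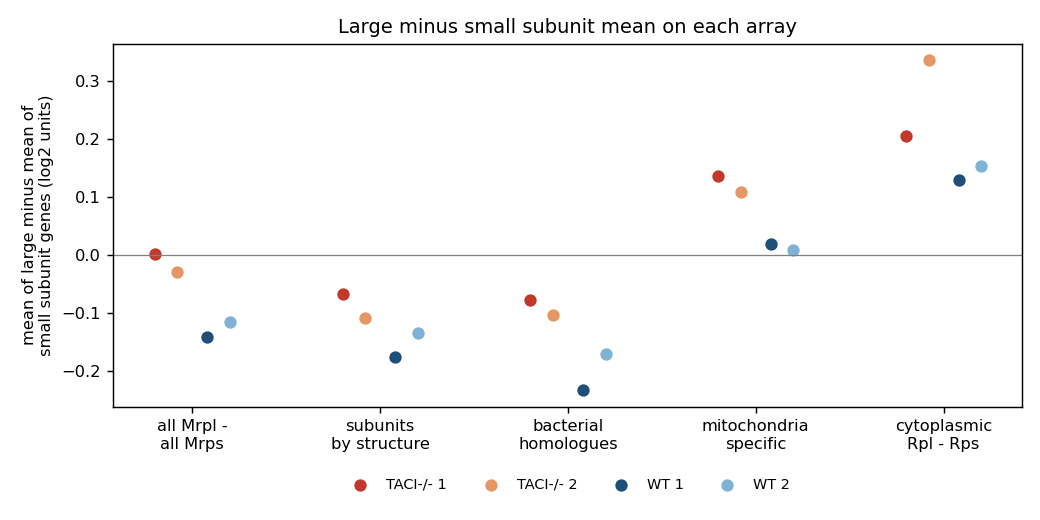
Mean of large subunit genes minus mean of small subunit genes on each array, in log2 units, for all members, for subunits assigned by structure, for members with and without a bacterial counterpart, and for cytoplasmic ribosomal proteins; each point is 1 array. In each set both TACI-/- points lie above both WT points, with differences of the means of 0.12, 0.07, 0.11, 0.11 and 0.13.

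By origin, with Mrps18a and Mrps18b counted among the proteins of mitochondria alone because they sit apart from the place of S18, the 43 members with a bacterial counterpart had a median log2 fold change of -0.01 and the 28 without one -0.07. The 28 include Mrpl42 and Mrps36, which the filter left out, and the median over the 26 tested ones was -0.04. The difference between the classes was 0.07 over all members, and 0.04 where all 4 arrays had to reach the filter. Over all members, leaving out 1 array gave 0.01 (without WT replicate 1) to 0.10 (without TACI-/- replicate 2). The difference was not tested. None of the 26 tested members without a counterpart had an unadjusted limma p under 0.05, and 1 of the 43 with one did, Mrps10 (2.33%). The share of all tested genes was 8.78%.

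The members lay on 17 chromosomes, 11 of them on chromosome 11, which also carries Tnfrsf13b. Their median log2 fold change was -0.12, with 8 of 11 negative (48.2% of all tested genes were), against -0.01 for the 60 on other chromosomes. It was 0.0011 without TACI-/- replicate 2 and -0.14 without replicate 1. None of the 11 had an unadjusted limma p under 0.05. Mrpl22, an exit tunnel protein, and Mrpl55, the counterpart of L31, were among the 100 tested genes on either side of Tnfrsf13b. Mrpl22 was at 4.70 and 4.17 in TACI-/- and 4.35 and 4.78 in WT cells, and Mrpl55 at 5.58 and 5.98 against 6.09 and 5.85. Their groups overlapped. Of the 200 genes in that stretch 33 (16.5%) had an unadjusted limma p under 0.05, beside 8.78% of all tested genes; the part of the locus in the values of these members was not tested.

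A second probe set was present for 9 members, and for 6 of these its log2 fold change had the opposite sign. That of Mrps16 had -0.10 where the one used had 0.33, that of Mrps17 -0.06 where the one used had -0.38, and that of Mrps5 0.16 where the one used had -0.04. The second probe sets of Mrpl10 (0.01), Mrpl12 (0.08), Mrpl36 (0.20), Mrpl47 (-0.09) and Mrps18b (0.08) complete the set. Mrpl47 was at 3.93 and 4.14 against 4.18 and 4.10, and its second probe set was below the filter on all arrays. Mrpl23, Mrpl27, Mrpl48 and Mrps36 have annotated pseudogenes, whose transcripts the probes may share, so their values are uncertain.

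Other genes of mitochondrial gene expression were taken from 7 lists of 120 genes, of which 112 were measured and 107 tested. None passed an adjusted p under 0.05 in limma, and 7 of 107 (6.54%) had an unadjusted p under 0.05, beside 8.78% of all tested genes. Their median log2 fold change was -0.05. Of the proteins of this ribosome with other symbols, Dap3, Ptcd3 and Gadd45gip1 were measured, with log2 fold changes of -0.06, 0.07 and -0.14.

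Among 10 tested translation factors, 7 had a negative log2 fold change and the median was -0.11. Mtif2, an initiation factor, was at 5.92 and 6.00 in TACI-/- and 6.24 and 6.30 in WT cells (-0.30 ± 0.13, SE), and Tufm, the elongation factor that delivers aminoacyl-tRNA, at 7.25 and 7.21 against 6.88 and 7.05 (0.26 ± 0.14). Both had groups that did not overlap, in opposite directions. Of 24 tested assembly and rRNA modification genes 20 were negative (83.3%, beside 48.2% of all tested genes), with a median of -0.10. Over the 25 measured the median was -0.09, and -0.04 without TACI-/- replicate 2. In this list 2 genes had an unadjusted limma p under 0.05 (8.33%, beside 8.78% of all tested genes), both positive. These were Ybey, an endoribonuclease, with 0.43 ± 0.15, and Mettl17, an assembly factor of the small subunit, with 0.40 ± 0.17. Mpv17l2, an inner membrane protein of ribosome assembly, had 0.40 ± 0.18 and Mrm3, a methyltransferase of ribosomal RNA, -0.26 ± 0.14.

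The 19 tested genes of aminoacyl-tRNA synthesis had a median of -0.02 and 3 unadjusted limma p under 0.05 (15.8%, beside 8.78% of all tested genes). Pars2, the prolyl-tRNA synthetase, had values of 3.46 and 3.73 without TACI, under the filter, and of 4.50 and 4.24 in WT cells, so no fold is given. Gatb, a subunit of the amidotransferase that makes glutaminyl-tRNA, was at 4.50 and 4.65 against 5.11 and 5.10. Its log2 fold change was -0.53 ± 0.13 (SE), with a limma adjusted p of 0.32. Fars2, the phenylalanyl-tRNA synthetase, had 0.38 ± 0.16. In the list of mitochondrial transcription and RNA processing (20 tested, median -0.0023), Ssbp1, which binds single-stranded mitochondrial DNA, had -0.44 ± 0.15 and Tbrg4, an RNA-binding protein, 0.32 ± 0.13. The 20 import and quality control genes had a median of 0.02 and no unadjusted limma p under 0.05, beside 8.78% of all tested genes. The 11 tested transcription regulators had a median of -0.06, with Creb1 at -0.34 ± 0.14 and Ppargc1b at -0.25 ± 0.14. Gabpa, of the factor that binds the ETS core, had -0.11, and Myc -0.20.

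Markers of naive T cells, of other cells and of activation were measured beside these genes. Of 7 tested naive CD4 T cell markers 6 had a negative log2 fold change (85.7%, beside 48.2% of all tested genes), with a median of -0.13. None of them passed an adjusted p under 0.05 in limma. Of 10 tested activated T cell markers 4 passed an adjusted p under 0.05 in limma, beside 0.138% of all tested genes. All 4 were higher in TACI-/- cells (Nr4a3, Irf4, Ctla4 and Nr4a2), and the median log2 fold change over the 10 was 1.19. Of the 10, 9 were positive, with small values for Il2ra (0.29) and Cd44 (0.19), and Myc was negative (-0.20). The list was chosen with earlier results of these data known, so its count is a description and not a test of activation. B cell markers were positive in all 6 tested of 9 measured, with means over the 9 of 4.51 and 4.33 on the TACI-/- arrays and 4.11 and 4.16 on the WT arrays, and Ms4a1, Ebf1 and Blk were below the filter on every array. The means over 9 myeloid markers were 3.96 and 3.94 against 3.93 and 3.92, with 4 of the 9 below the filter on every array (Cd14, S100a8, S100a9 and Itgax). The 5 tested ones went both ways, from Lyz2 with -0.49 ± 0.15 to Cd68 with 0.71 ± 0.17 (SE), limma adjusted p 0.46 and 0.32. Of 8 CD8 T and NK cell markers 3 were tested, and Cd8a, Klrb1c, Gzma and Gzmb were below the filter on every array. Cd8b1 was at 6.11 and 5.73 against 6.55 and 6.59 and Klrd1 at 4.76 and 5.06 against 5.79 and 5.76, both without overlap, with log2 fold changes of -0.65 ± 0.16 and -0.87 ± 0.15 (SE; limma adjusted p 0.33 and 0.19). The other tested one, Nkg7, went the other way without overlap, at 5.68 and 5.75 against 5.45 and 5.64 (0.17 ± 0.14, limma adjusted p 0.80). The means over the 8 were 3.88 and 3.97 against 3.96 and 4.21. Of 5 plasma cell markers 4 had log2 fold changes between -0.01 and 0.02. Of the erythroid and platelet markers 2 were measured, Itga2b with 0.45 and Pf4 below the filter on every array. The part of other cells in the values of the ribosomal protein genes was not tested, and in bulk samples fewer cells of a type and less RNA per cell cannot be told apart.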

How the data were processed

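The deposited table holds log2 expression values, 1 per probe set and array (41345 probe sets, 4 arrays), made by the authors; the submitters' processing notes list RMA and Partek with no version or role. No source states the log base; 2 follows RMA's usual output and fits values of 0.94 to 13.2. A platform annotation gave 23521 probe sets 1 gene symbol, 1814 several and 16010 none. Only the first were used, with the brightest probe set by mean over 4 arrays for each gene (9 of the 71 members had 2). The comparison used limma 3.58.1 under R 4.3.3, with lmFit and eBayes on genotype alone, two-sided, and Benjamini-Hochberg adjustment over 13782 genes (threshold 0.05); errors are moderated standard errors (SE), with 6.59 degrees of freedom. The fit was also run on data simulated from its own variance model. Those data hold no shift of a whole array, so the run does not bear on one. No label ties equal replicate numbers of the genotypes to each other, and the fit had no block. Gene lists and members were chosen with earlier results of these data known. Genes were named by rule: the 15 lowest p, the 6 brightest and 6 dimmest, those with several probe sets, the Mrps18 paralogues, the neighbours of Tnfrsf13b, Mrps30 and Mrps36, and up to 4 per list by p; the remaining names were picked with values in view. The subunit comparison, list counts and motif shares are descriptions without a test. Alternatives were other filters, scalings, probe set means, variance models, the block, and leaving out each array. p-values measure the spread between these samples only.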

Additional observations from a re-analysis of the deposited data

How the results depend on the processing

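No member passed an adjusted p under 0.05 under any of the 13 alternatives fitted, nor at 0.1, and no gene of the 7 lists did under the 13. With no member called, this count says little about stability. The count at an unadjusted limma p under 0.05, 1 in the fit reported, was 0 at p under 0.01. It was 2 with no low-value filter (Mrps10 and Mrps36; 2.82%, beside 7.19% of all tested genes). With a trended, robust variance it was 2 (2.90%, beside 8.74%). With the replicate block it was 4 (Mrpl14, Mrpl27, Mrps10 and Mrps17; 5.80%, beside 8.21%). The correlation of same-numbered deviations was -0.03 over all tested genes, so the numbers were not taken as pairs. Fits without 1 array leave a lone sample in a genotype, so their counts are not given. Without moderation the 1 gene was Mrpl19. Over the alternatives the median log2 fold change of members ran from -0.06 to 0.06, and the large minus small difference of medians from 0.02 to 0.14. The first changed sign without TACI-/- replicate 2 and without WT replicate 1. On leaving out 1 array, 35 of the 69 tested members changed sign; of the 30 tested members that the naming rule gave, 11 did under some alternative. With quantile normalization again Mrpl24 had 0.025, and with the mean over probe sets Mrpl36 had 0.054 and Mrps5 0.062. Leaving out 1 array gave ranges of -0.050 to 0.042 (Mrpl24), -0.42 to 0.31 (Mrpl52), -0.14 to 0.18 (Mrpl58), -0.19 to 0.011 (Mrpl39), -0.21 to 0.0043 (Mrpl47), -0.11 to 0.0705 (Mrpl10), -0.041 to 0.29 (Mrpl12), -0.24 to 0.16 (Mrps5), -0.39 to 0.14 (Mrpl22) and -0.39 to 0.0055 (Mrpl55). The cause was not tested. A fit without 1 array assumes that the lone sample varies like the other genotype.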
